A study of Rattus norvegicus with 6 samples.

Results

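Cell cycle and DNA replication genes were followed in rat endothelial cells of the liver sinusoids, which are capillaries with a fenestrated wall, held at raised or at normal pressure. The genes were listed by symbol, and earlier results of these data, that of cyclin J among them, were known when they were chosen. Of the 36 listed, 22 act in G1 phase, at the entry into S phase or in DNA synthesis, 13 act in G2 phase and mitosis, and cyclin J (Ccnj) was placed in neither set. A symbol matched 35 of the 36, and 30 of these passed the low-count filter, among 12742 tested of 32623 genes. Ccnb2 was not matched in the expression table, so its expression is not analysed here, while its promoter is among those searched for motifs.

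The cells were primary cultures from Han Wistar rats, kept for 48 h in the Exoliver device, a perfused chamber, together with hepatocytes, stellate cells and hepatic macrophages. Pressure was 12 mmHg (pathological) in 3 libraries and 1 mmHg (physiological) in the other 3, and shear stress was 1.15 dyn/cm2 in all 6. The labels give no age or sex, and nothing says whether libraries of 1 pressure came from separate animals or cultures. P-values therefore measure the spread between these libraries, which may be technical.

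A cell leaves quiescence when D-type cyclins with Cdk4 or Cdk6, and then E-type cyclins with Cdk2, phosphorylate the retinoblastoma protein and free E2F factors, which switch on the genes of DNA replication. Origins of replication are licensed in G1 when Cdc6 and Cdt1 load the MCM helicase onto DNA. In G2 and mitosis, cyclins A and B with Cdk1, the Aurora and Polo kinases and the spindle checkpoint take over. Most endothelial cells and hepatocytes of the resting adult liver are quiescent, and both can re-enter the cycle after loss of liver tissue.

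These phases leave a mark in the promoters, which is shown because its frequency differs between the 2 sets of genes. E2F factors recognise TTTCGCGC or TTTGGCGC, the CHR element TTTGAA is bound by the MuvB core of G2/M genes, and the CCAAT box CCAAT is bound by NF-Y. Each motif was searched on both strands in 300 bases per gene, 250 before to 50 after the start site, in the GRCr8 build from RefSeq, where 26 of the 36 genes, Ccnb2 included, had a promoter. An E2F match stood in 7 of 14 promoters of the G1/S set (50%) and in 1 of 11 of the G2/M set (9.09%), against 1.06% of 21851 protein-coding promoters. A CHR match stood in 1 of 14 promoters of the G1/S set (7.14%) and in 8 of 11 of the G2/M set (72.7%), against 17.1% of protein-coding promoters. A CCAAT match stood in 8 of 14 (57.1%) and 8 of 11 (72.7%), against 38%. A match is a description of letters and shows no binding.

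In the following promoters, given 5′ to 3′ on the gene's strand, capitals mark the matches of any of these motifs, and run together where matches overlap. Mcm5 (chr19:13488563-13488862, plus strand) and Mcm7 (chr12:22163129-22163428, minus strand) have E2F and CCAAT matches. Cdk1 (chr20:19265043-19265342, plus strand) has E2F, CHR and CCAAT matches, and Mki67 (chr1:199952544-199952843, minus strand) has CHR and CCAAT matches. Ccnj (chr1:249608741-249609040, plus strand) has CCAAT matches and no match of the others in this window.
Mcm5: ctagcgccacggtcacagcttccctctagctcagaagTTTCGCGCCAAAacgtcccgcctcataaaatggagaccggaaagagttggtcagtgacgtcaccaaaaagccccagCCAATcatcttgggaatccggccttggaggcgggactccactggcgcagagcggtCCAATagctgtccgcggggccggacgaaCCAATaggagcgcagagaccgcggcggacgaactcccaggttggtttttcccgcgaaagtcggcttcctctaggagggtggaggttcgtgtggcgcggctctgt
Mcm7: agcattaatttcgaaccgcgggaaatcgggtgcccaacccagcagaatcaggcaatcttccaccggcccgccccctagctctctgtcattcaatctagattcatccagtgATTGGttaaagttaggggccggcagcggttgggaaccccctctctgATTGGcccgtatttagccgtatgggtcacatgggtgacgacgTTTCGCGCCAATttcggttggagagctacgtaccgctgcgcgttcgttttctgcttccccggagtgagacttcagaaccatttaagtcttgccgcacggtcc
Cdk1: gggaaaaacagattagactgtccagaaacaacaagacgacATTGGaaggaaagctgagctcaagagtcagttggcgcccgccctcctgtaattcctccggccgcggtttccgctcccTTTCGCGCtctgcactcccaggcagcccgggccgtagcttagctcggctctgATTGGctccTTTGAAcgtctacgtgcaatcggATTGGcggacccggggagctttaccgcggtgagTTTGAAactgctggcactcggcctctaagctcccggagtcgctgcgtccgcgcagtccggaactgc
Mki67: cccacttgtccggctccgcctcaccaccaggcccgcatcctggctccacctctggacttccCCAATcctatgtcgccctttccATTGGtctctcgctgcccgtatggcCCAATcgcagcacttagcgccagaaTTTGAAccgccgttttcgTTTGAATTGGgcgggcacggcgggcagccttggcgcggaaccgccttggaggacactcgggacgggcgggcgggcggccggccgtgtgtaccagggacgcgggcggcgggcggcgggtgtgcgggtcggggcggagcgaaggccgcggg
Ccnj: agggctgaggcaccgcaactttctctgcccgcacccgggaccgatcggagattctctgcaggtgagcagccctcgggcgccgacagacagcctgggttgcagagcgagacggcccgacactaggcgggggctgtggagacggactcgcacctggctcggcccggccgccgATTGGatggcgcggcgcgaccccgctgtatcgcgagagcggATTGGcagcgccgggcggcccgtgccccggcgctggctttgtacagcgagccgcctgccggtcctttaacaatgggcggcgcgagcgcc

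The libraries of each pressure differed among themselves, and a part due to pressure in the differences below was not tested. Totals ran from 8925149 to 24025406 expected counts, and 10227 to 17170 genes had at least 1 count. The 24 matched hepatocyte markers of 25 summed to 382, 828 and 70886 CPM (CPM here are counts relative to the TMM-scaled library total) at 12 mmHg, in replicates 1, 2 and 3, against 237, 49363 and 42436 CPM at 1 mmHg. At most 1 of these markers was at 0 in any library. Endothelial markers, 13 of 15 matched, summed to 833, 936 and 2708 CPM at 12 mmHg, against 1364, 3007 and 2299 CPM at 1 mmHg, and were lowest in the libraries poor in hepatocyte RNA. Of these, Cldn5 was at 0 in every library, and the endothelial cadherin gene Cdh5 was at 184 to 220 CPM at 12 mmHg and 215 to 320 CPM at 1 mmHg. All 12 sinusoidal endothelial markers were matched and summed to 3948 to 9438 CPM at 12 mmHg and 4327 to 8856 CPM at 1 mmHg. Stellate markers, 14 of 15 matched, summed to 472 to 2982 CPM at 12 mmHg and 572 to 2388 CPM at 1 mmHg, with Lum at 0 in every library. Macrophage markers, 13 of 14 matched, summed to 46.7 to 1549.7 CPM at 12 mmHg and 653 to 1317 CPM at 1 mmHg, with Timd4 at 0 in every library.

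The libraries also differed in how many cell cycle genes had no count. No count was found for 2, 6 and 14 of the 35 genes in replicates 1, 2 and 3 at 12 mmHg, against 0, 11 and 11 at 1 mmHg. Among the 30 tested genes 1, 3 and 10 were at 0 at 12 mmHg, against 0, 7 and 6 at 1 mmHg. The share of all tested genes at 0 was 0.989%, 6.43% and 26.4% at 12 mmHg, against 0.973%, 10.6% and 23.6% at 1 mmHg. For the 21 tested G1/S genes the share was 0%, 4.76% and 38.1% at 12 mmHg, against 0%, 14.3% and 14.3% at 1 mmHg. For the 8 tested G2/M genes it was 0%, 12.5% and 25% at 12 mmHg, against 0%, 50% and 37.5% at 1 mmHg. The sets thus lay above all tested genes in some libraries and below them in others, as the G1/S set did in pathological replicate 3 and in physiological replicate 3. At least 1 count in all 6 libraries was found for 15 of the 35 genes (42.9%, with 5 genes that did not pass the filter among the 35), against 60.6% of all tested genes. They were 12 of 22 in the G1/S set and 3 of 12 in the G2/M set (Mki67, Cdc20 and Aurka).

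**Figure D1:**
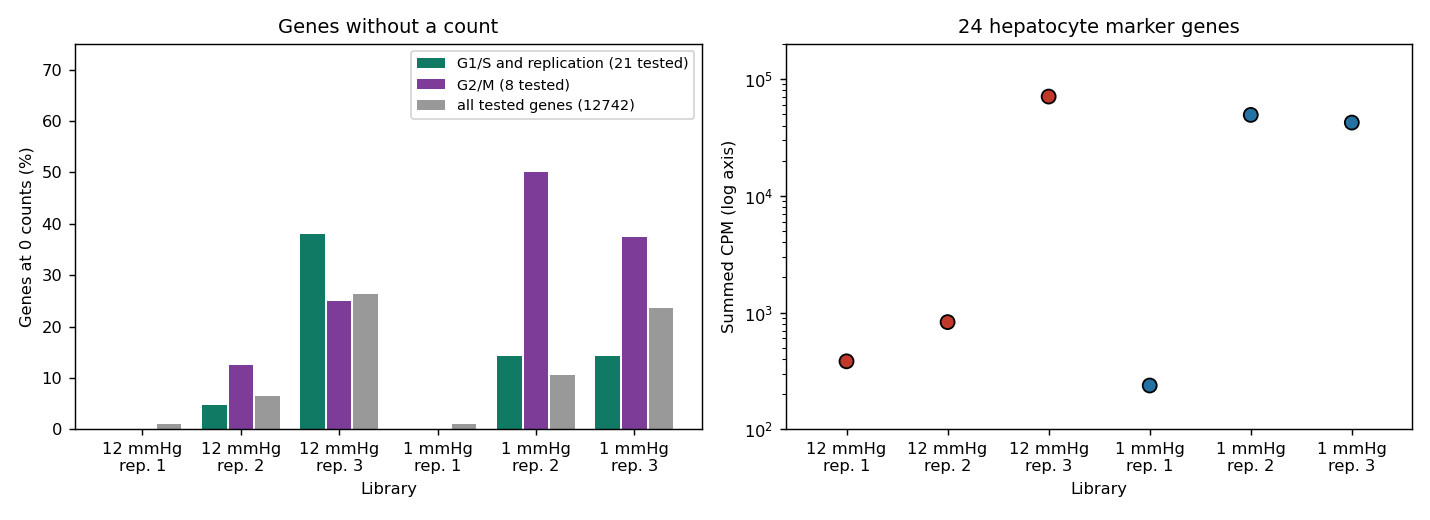
Left, share of genes at 0 counts in each library (percent), for the 21 tested G1/S and replication genes, the 8 tested G2/M genes and all 12742 tested genes. Right, summed CPM of 24 hepatocyte markers on a log axis, with 12 mmHg in red and 1 mmHg in blue; replicates 1 and 2 at 12 mmHg and replicate 1 at 1 mmHg lie at 382, 828 and 237 CPM, and the other 3 libraries between 42436 and 70886 CPM.

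No cell cycle gene passed the threshold of an adjusted p under 0.05 between the pressures in edgeR's quasi-likelihood test. The test called 0 of the 30 genes and 0 of all 12742 genes (0%), and the adjusted p of each of the 30 was 1.00. At an unadjusted p under 0.05 stood 1 of the 30 genes, Ccnj, beside 33 of all genes tested (0.259%). The count of called genes was 0 in limma-voom, where 159 genes, 1 of them among the 30, lay under 0.05 before adjustment. With sample weights it was also 0, with 2528 genes, 7 of them among the 30, under 0.05 before adjustment. DESeq2 called 45, of which 11 were among the genes tested in edgeR. Fold changes, given as log2 of 12 mmHg over 1 mmHg, were positive for 16 and negative for 14 of the 30, while 47.5% of all tested genes were negative. In TMM-scaled CPM, the groups did not overlap for 3 of the 30 genes, Ccnj and Cdk1 lower and Aurka higher at 12 mmHg. The order of Aurka depended on the scaling. Of all tested genes, 4.61% did not overlap, 3.05% lower and 1.55% higher. Over all genes the coefficient of variation between libraries of 1 group was 1.39, so differences of moderate size were not detectable. In bulk RNA, fewer cycling cells and less RNA per cell cannot be told apart.

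The G1/S and replication genes did not lean to either pressure, with 11 positive and 10 negative fold changes among 21 tested, a median of 0.04 and a range of -2.20 to 1.62. The median of all tested genes was 0.05. Among the 8 tested G2/M genes, 5 were positive and 3 negative, with a median of 0.63 and a range of -4.15 to 3.19. That median was -0.36 without physiological replicate 2 and -0.03 without pathological replicate 3, whereas the G1/S median lay between -0.14 and 0.46 when any 1 library was left out.

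**Figure D2:**
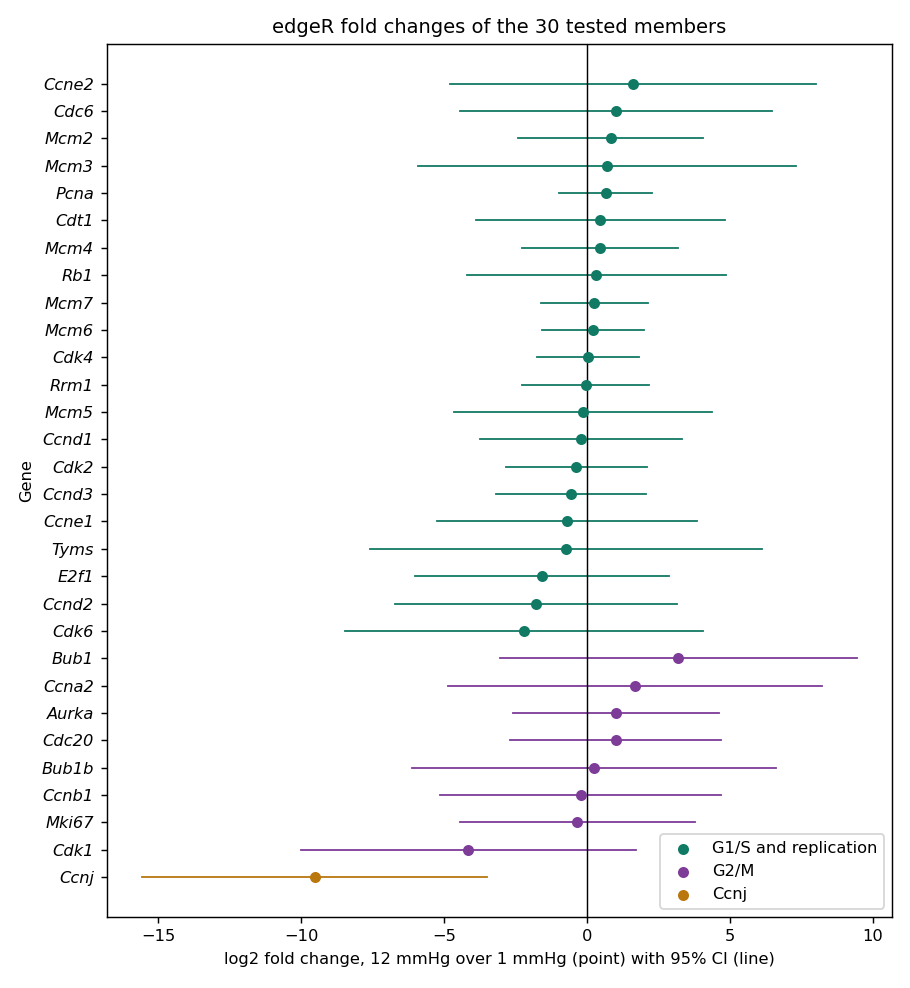
Log2 fold change of 12 mmHg over 1 mmHg (points) with its 95% confidence interval (lines) for the 30 tested genes, from the edgeR fit with 3 libraries per pressure. Every interval but that of Ccnj includes 0, and those of the G2/M genes are wide.

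The D-type cyclins, which receive growth factor signals at the start of G1, varied more between libraries than between pressures. Ccnd1 measured 3.43, 4.17 and 249 CPM at 12 mmHg, against 30.6, 95 and 170 CPM at 1 mmHg. Pathological replicates 1 and 2 were the lowest of the 6 libraries and pathological replicate 3 the highest, so the groups overlapped across their whole range. Ccnd3 measured 14.7, 8.48 and 83.7 CPM at 12 mmHg, against 19.7, 36.4 and 100.5 CPM at 1 mmHg. Cdk4, the kinase partner of these cyclins, measured 46.4, 43.6 and 153 CPM at 12 mmHg, against 58.7, 58.7 and 119 CPM at 1 mmHg. For Ccnd1, Ccnd3 and Cdk4, the 3 libraries with the least hepatocyte RNA, in the marker sums above, were the 3 lowest, and no other of the 35 genes had this order. For Cdk4 it rested on a near tie, 58.72 CPM in physiological replicate 1 against 58.74 CPM in physiological replicate 2. The order was found in 8.57% of the 35 genes, some of which did not pass the filter, against 18.3% of all tested genes. The part of hepatocyte RNA in these levels was not tested.

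Ccnd2 behaved differently from its relatives. It measured 7.40, 1.80 and 6.92 CPM at 12 mmHg, against 18.3, 0 and 36.8 CPM at 1 mmHg, a log2 fold change of -1.77 (95% CI -6.70 to 3.16, edgeR adjusted p = 1.00), and -0.79 without physiological replicate 3. Physiological replicate 2 had no count and the other physiological libraries lay above all pathological ones. Cdk6 measured 1.61, 2.51 and 0 CPM at 12 mmHg, against 4.28, 0 and 14.8 CPM at 1 mmHg.

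Downstream of these kinases, Rb1, the retinoblastoma gene that restrains E2F, measured 37.2, 28.7 and 0 CPM at 12 mmHg, against 43.6, 4.05 and 4.56 CPM at 1 mmHg. Its 3 high values lay in the 3 libraries with little hepatocyte RNA. E2f1, an activator of replication genes, measured 5.08, 5.40 and 0.19 CPM at 12 mmHg, against 6.94, 2.89 and 22.2 CPM at 1 mmHg, a log2 fold change of -1.58 (95% CI -6.02 to 2.86, edgeR adjusted p = 1.00), and -0.47 without physiological replicate 3. Of the E-type cyclins, which drive entry into S phase with Cdk2, Ccne1 measured 5.69, 29.8 and 0 CPM at 12 mmHg, against 5.76, 12.3 and 40.1 CPM at 1 mmHg. Ccne2 was at 3.25, 9.05 and 0 CPM at 12 mmHg, against 3.92, 0.06 and 0 CPM at 1 mmHg. Cdk2 itself was found in every library, at 4.93 to 37.4 CPM at 12 mmHg and 25.8 to 38.1 CPM at 1 mmHg.

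The MCM helicase, a ring of 6 different subunits that unwinds DNA ahead of the fork, was not seen as a complete set of transcripts in every library. Summed over Mcm2 to Mcm7, it stood at 270, 454 and 103 CPM at 12 mmHg, against 238, 225 and 187 CPM at 1 mmHg. The highest and the lowest sum were both at 12 mmHg. Mcm7 measured 124, 261 and 29.5 CPM at 12 mmHg, against 82.8, 128 and 134 CPM at 1 mmHg. Mcm6, which varied least of the 6 in proportion to its level, was at 30.7 to 64.8 CPM at 12 mmHg and 29.8 to 47.2 CPM at 1 mmHg. Mcm3 had 640 and 311 counts in pathological replicates 1 and 2 and 694 in physiological replicate 1, but 0 in each of the other 3 libraries. Mcm2 had 354 counts in pathological replicate 3, which lacked Mcm3, and 2 counts in physiological replicate 3. Mcm4 and Mcm5 ranged from 9.10 to 37.7 and from 0.09 to 20.3 CPM at 12 mmHg, and from 4.70 to 37.8 and from 2.08 to 17.7 CPM at 1 mmHg.

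The licensing factors that load this helicase shared their extreme libraries. Cdc6 measured 2.22, 15.6 and 0 CPM at 12 mmHg, against 3.22, 4.98 and 0.57 CPM at 1 mmHg. Cdt1 measured 21.6, 32.2 and 0 CPM at 12 mmHg, against 16.5, 14.7 and 7.70 CPM at 1 mmHg. Both were at 0 in pathological replicate 3 and highest in pathological replicate 2, so that the physiological values lay between the pathological extremes.

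Pcna, the sliding clamp that tethers DNA polymerase, had the most counts of the G1/S set. It measured 237, 526 and 118 CPM at 12 mmHg, against 189, 125 and 245 CPM at 1 mmHg, or 294 ± 209 and 187 ± 60.2 CPM (SD, n = 3 each). The log2 fold change was 0.65 (95% CI -0.97 to 2.27, edgeR adjusted p = 1.00), and -0.06 without pathological replicate 2 and 1.04 without pathological replicate 3. Rrm1, the large subunit of ribonucleotide reductase, which makes deoxynucleotides, measured 48.4, 38.3 and 11.7 CPM at 12 mmHg, against 48.5, 17.9 and 34.6 CPM at 1 mmHg. Its small subunit Rrm2, made mainly in S phase, had 32 counts in pathological replicate 2 and 34.9 in physiological replicate 1 and was at 0 elsewhere. Tyms, which makes thymidylate, had 164, 0 and 0 counts at 12 mmHg, against 269, 15 and 0 at 1 mmHg.

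**Figure D3:**
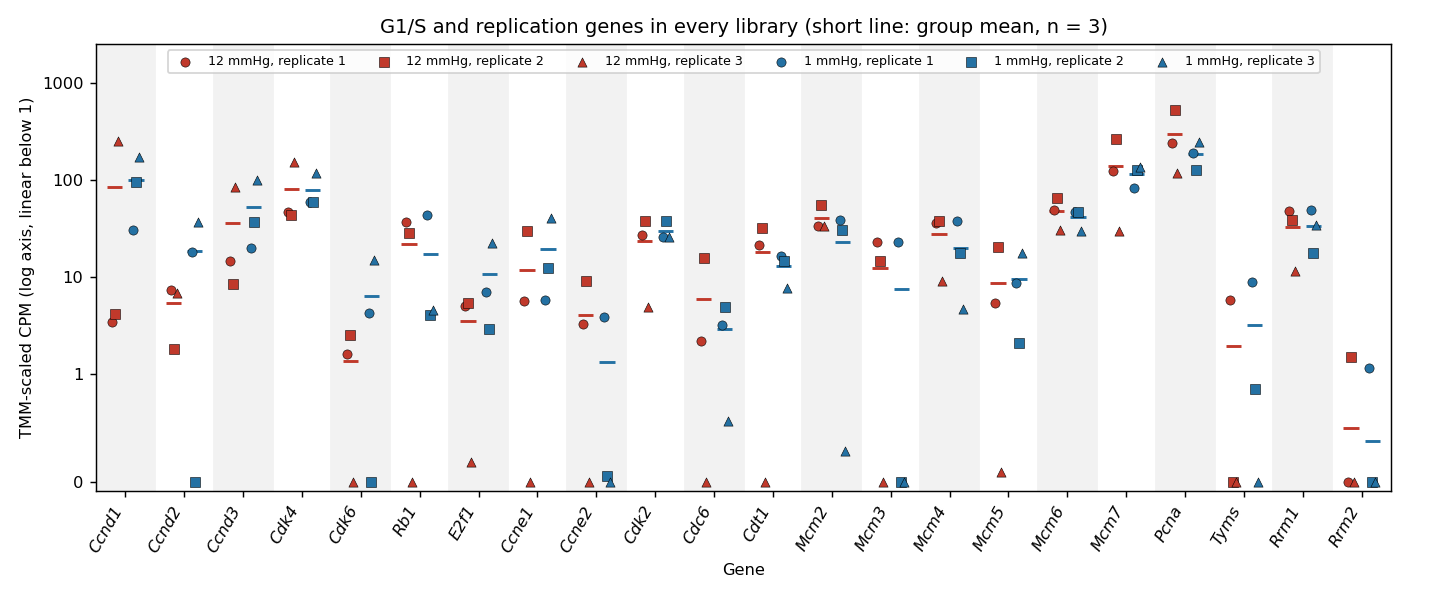
TMM-scaled CPM (log axis, linear below 1) of the 22 G1/S and replication genes, 1 point per library, with 12 mmHg in red left of 1 mmHg in blue and a short line at each group mean. Pathological replicate 3 (red triangles) is the highest for Ccnd1 and Cdk4 and at 0 for 9 genes, Mcm3, Cdc6 and Cdt1 among them.

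In the G2/M set, Mki67, which encodes the Ki-67 antigen of cycling cells, was found in every library. It had 31, 71 and 159 counts at 12 mmHg, against 453, 59 and 44 at 1 mmHg, or 1.11, 3.36 and 15.1 CPM against 14.9, 3.41 and 6.27 CPM. The highest library of each pressure nearly coincided, and the log2 fold change was -0.33 (95% CI -4.44 to 3.77, edgeR adjusted p = 1.00). It was 0.14 without pathological replicate 1 and 0.47 without physiological replicate 1.

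Over all libraries, the 2 highest Mki67 values were in pathological replicate 3 and physiological replicate 1. These were also the 2 highest libraries for Top2a and for the checkpoint kinase gene Bub1, and for no other matched G2/M gene. Top2a, the topoisomerase that untangles chromosomes, had 4, 0 and 141 counts at 12 mmHg, against 167, 2 and 0 at 1 mmHg, and did not pass the filter. In pathological replicate 3, which held the highest Mki67, Top2a and Bub1 values, Ccna2, Plk1, Aurkb, Bub1b and Birc5 were at 0. Physiological replicate 1 had counts for all 12 matched G2/M genes, as did pathological replicate 1, which had the lowest Mki67 value (1.11 CPM).

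Cdk1, the mitotic kinase, was lower in each library at 12 mmHg than in any at 1 mmHg. It had 14, 0 and 9 counts at 12 mmHg, against 88, 19 and 142 at 1 mmHg, or 0.50, 0 and 0.85 CPM against 2.90, 1.10 and 20.2 CPM. The log2 fold change was -4.15 (95% CI -10.02 to 1.72, edgeR unadjusted p = 0.142, adjusted p = 1.00), and -2.16 without physiological replicate 3. Its cyclin partner Ccnb1 did not share this order, at 6.29, 8.38 and 9.76 CPM at 12 mmHg, against 6.12, 0 and 22.4 CPM at 1 mmHg. Ccna2, the cyclin of S phase and G2, measured 1.39, 6.77 and 0 CPM at 12 mmHg, against 2.50, 0 and 0 CPM at 1 mmHg.

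Aurka, the Aurora kinase of centrosomes and spindle poles, had the most counts of the set. In TMM-scaled CPM it was higher in each library at 12 mmHg than in any at 1 mmHg. This order depended on the scaling, with a TMM factor of 1.27 in physiological replicate 1 and 0.894 in pathological replicate 2. Relative to unscaled totals, physiological replicate 1 (553 counts of 24025406) lay above pathological replicates 2 (485 of 23649036) and 3 (257 of 11426299). Aurka measured 19.99, 22.97 and 24.4 CPM at 12 mmHg, against 18.2, 14.6 and 0.14 CPM at 1 mmHg, a log2 fold change of 1.03 (95% CI -2.58 to 4.63, edgeR adjusted p = 1.00). Physiological replicate 3 had 1 count, and without it the fold change was 0.44, while it was 1.65 without physiological replicate 1. Aurkb, the Aurora kinase of the centromere, had 18, 0 and 0 counts at 12 mmHg, against 93, 0 and 0 at 1 mmHg. Plk1, the Polo kinase, had 71, 10 and 0 counts at 12 mmHg, against 81, 0 and 0 at 1 mmHg. Birc5 (survivin), which sits in 1 complex with Aurora B, had 10, 0 and 0 counts at 12 mmHg, against 17, 0 and 0 at 1 mmHg.

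Of the spindle checkpoint kinases, Bub1 measured 2.54, 2.13 and 47.5 CPM at 12 mmHg, against 5.63, 0 and 0 CPM at 1 mmHg, a log2 fold change of 3.19 (95% CI -3.05 to 9.44, edgeR adjusted p = 1.00). The size rested on 501 counts in pathological replicate 3, and without that library the fold change was 0.30. Physiological replicate 1 held all its counts at 1 mmHg. Bub1b, which encodes BubR1, measured 3.15, 2.04 and 0 CPM at 12 mmHg, against 4.38, 0 and 0 CPM at 1 mmHg. Cdc20, the activator of the anaphase-promoting complex that the checkpoint holds back, measured 6.11, 2.84 and 38.5 CPM at 12 mmHg, against 8.88, 2.72 and 11.8 CPM at 1 mmHg.

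**Figure D4:**
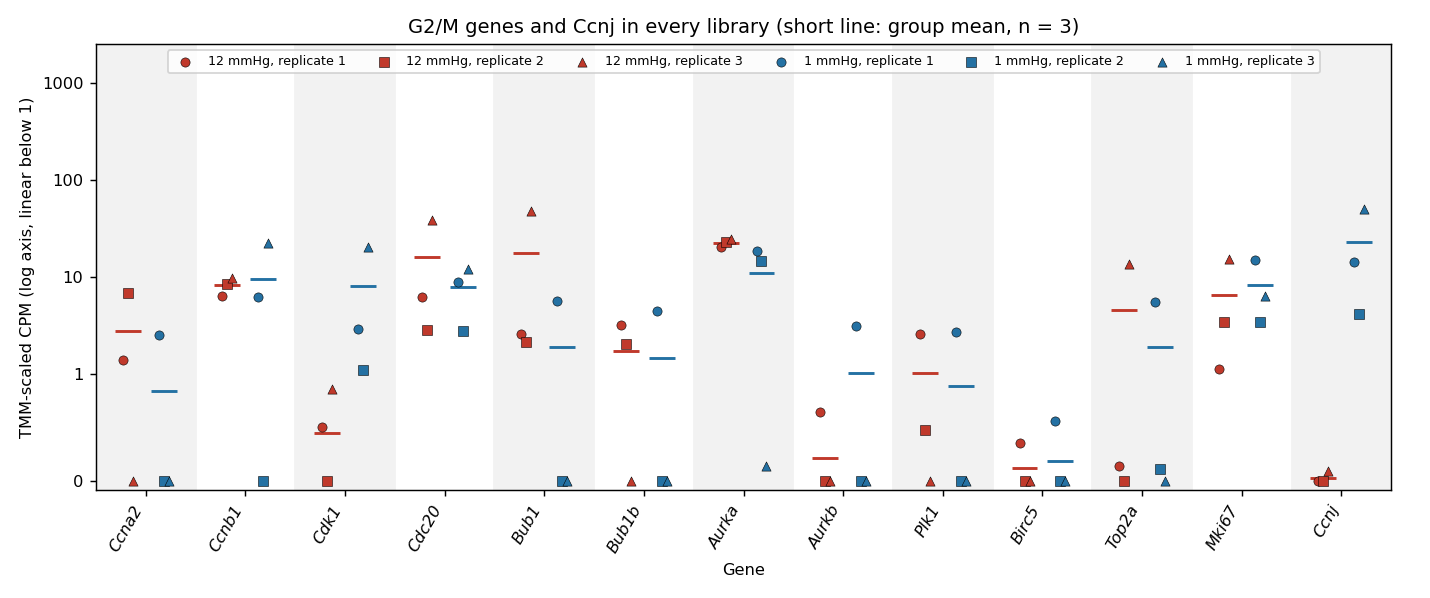
TMM-scaled CPM (log axis, linear below 1) of the 12 matched G2/M genes and Ccnj, 1 point per library, with 12 mmHg in red left of 1 mmHg in blue and a short line at each group mean. The groups separate for Cdk1, Aurka and Ccnj, for Aurka only after this scaling. The points at 0 belong mostly to pathological replicate 3 and to physiological replicates 2 and 3.

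Cyclin J had the largest fold change of the 30 tested genes, and was much lower at 12 mmHg. Ccnj (ENSRNOG00000014551) encodes a cyclin first studied in Drosophila, and its place in the mammalian cycle is not settled. It had 0, 0 and 1 counts at 12 mmHg, against 433, 70.2 and 351 at 1 mmHg, or 0, 0 and 0.09 CPM against 14.2, 4.06 and 50.03 CPM. Every physiological library lay above every pathological one, and the values at 12 mmHg were at or near 0. In the libraries poor in hepatocyte RNA, values were 0 and 0 CPM at 12 mmHg against 14.2 CPM at 1 mmHg. In those rich in it, they were 0.09 CPM against 4.06 and 50.03 CPM. As the groups do not overlap, the order holds in any subset, so this split tests nothing about hepatocyte RNA.

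In edgeR, Ccnj had the smallest unadjusted p of all 12742 genes (0.0066) but an adjusted p of 1.00, with a log2 fold change of -9.53 (95% CI -15.56 to -3.49). DESeq2 called it (DESeq2 adjusted p = 0.000226), as 1 of 45 genes called among 14772 (0.305%), and called no other of the 35. In limma-voom its adjusted p was 1.00, and with sample weights 0.207. Leaving out any 1 library gave edgeR adjusted p between 0.858 and 1.00 and fold changes between -11.87 and -8.21, of which -11.87, without pathological replicate 3, has no count at 12 mmHg and depends on the prior count. Counts of 432.76 and 70.22 in physiological replicates 1 and 2 are not whole, as the estimation gives where reads match more than 1 gene.

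Of 19 other cyclins outside the list, 18 were matched and 14 tested, with 8 positive and 6 negative fold changes and a median of 0.21. No groups among them lay without overlap, as was so for only 4.61% of all tested genes. Those with the smallest p were Ccni, an atypical cyclin, at 111, 167 and 113 CPM at 12 mmHg, against 113, 332 and 365 CPM at 1 mmHg, and Ccny, a membrane-anchored cyclin, at 50.2, 38.4 and 15.5 CPM at 12 mmHg, against 61.0, 60.2 and 44.8 CPM at 1 mmHg. The log2 fold change was -1.05 for Ccni (95% CI -2.55 to 0.45) and -0.67 for Ccny (95% CI -2.55 to 1.20), with edgeR adjusted p of 1.00 each. That of Ccny was -0.31 without pathological replicate 3 and -1.03 without pathological replicate 1. Ccnjl, the nearest relative of Ccnj by name, measured 1.82, 1.71 and 12.1 CPM at 12 mmHg, against 7.40, 12.0 and 0.14 CPM at 1 mmHg, and was chosen after its values were seen. No gene of this list passed the test, where 0 of all 12742 genes did.

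Inhibitors of the cyclin-dependent kinases were present at both pressures. Of 8 listed, 7 were matched and tested, with 4 positive and 3 negative fold changes and a median of 0.68. Cdkn1a, which encodes the p53 target p21, measured 638, 1156 and 198 CPM at 12 mmHg, against 511, 307 and 385 CPM at 1 mmHg, a log2 fold change of 0.73 (95% CI -0.96 to 2.41, edgeR adjusted p = 1.00). Without pathological replicate 2 the fold change was 0.07, and without pathological replicate 3 it was 1.17. Like Pcna, it was highest in pathological replicate 2 and the groups overlapped. Cdkn2a, the locus of p16 and Arf, measured 0.75, 3.79 and 0 CPM at 12 mmHg, against 0.72, 0 and 0 CPM at 1 mmHg, a log2 fold change of 2.56 (95% CI -3.49 to 8.62, edgeR adjusted p = 1.00) that was 0.60 without pathological replicate 2.

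The wider lists also held no called gene, where 0 of all 12742 genes were called. In the replication machinery, 27 of 41 tested genes were positive and 14 negative, with a median of 0.36. Without overlap, 2 genes lay higher (Chaf1b and Rpa2) and 1 lower (Rpa3) at 12 mmHg. Of all tested genes, 1.55% lay higher and 3.05% lower without overlap. Rpa2 and Rpa3, subunits of the single-strand binding protein RPA, are named because of this order, after their values were seen. Rpa2 measured 34.8, 62.6 and 41.2 CPM at 12 mmHg, against 32.0, 19.2 and 0.14 CPM at 1 mmHg. Its order depended on the TMM scaling. Relative to unscaled totals, physiological replicate 1 (973 counts of 24025406) lay above pathological replicate 3 (435 of 11426299). Rpa3 measured 9.65, 8.38 and 0 CPM at 12 mmHg, against 10.3, 21.8 and 35.1 CPM at 1 mmHg. Neither passed the test (edgeR adjusted p = 1.00 each). Chaf1b, a subunit of the histone chaperone that follows the fork, measured 2.72, 3.27 and 31.1 CPM at 12 mmHg, against 2.27, 0 and 0 CPM at 1 mmHg, a log2 fold change of 3.99 (95% CI -2.31 to 10.29, edgeR adjusted p = 1.00). It was 1.95 without pathological replicate 3, and physiological replicate 1 held all its counts at 1 mmHg. Slbp, the histone mRNA binding protein, measured 221, 696 and 15.2 CPM at 12 mmHg, against 125, 101 and 79.7 CPM at 1 mmHg, a log2 fold change of 1.61 (95% CI -0.95 to 4.16, edgeR adjusted p = 1.00) that was 0.22 without pathological replicate 2. In the mitotic machinery, 18 of 38 tested genes were positive and 20 negative, with a median of -0.02. Beside the 3.05% of all tested genes, 1 gene of this list lay lower without overlap.

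That gene was Ttk, the checkpoint kinase Mps1, at 0.43, 0 and 0 CPM at 12 mmHg, against 0.89, 3.59 and 8.69 CPM at 1 mmHg, with a log2 fold change of -4.83 (95% CI -11.05 to 1.39, edgeR unadjusted p = 0.111, adjusted p = 1.00). Pathological replicate 1 held its only counts at 12 mmHg. Cdk1, Ccnj and Rpa3 were also lower at 12 mmHg without overlap, as were 3.05% of all tested genes. Cenpa, the histone variant of centromeres, measured 1.36, 0.71 and 20.1 CPM at 12 mmHg, against 1.58, 2.83 and 0 CPM at 1 mmHg, and was highest, like Bub1, in pathological replicate 3. Its log2 fold change was 2.31 (95% CI -3.27 to 7.90, edgeR adjusted p = 1.00), and -0.50 without that library.

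Among other E2F and Rb family genes and their partners, 5 of 12 tested were positive and 7 negative, with a median of -0.39. Lin54, the MuvB subunit that contacts the CHR element, measured 103, 226 and 30.7 CPM at 12 mmHg, against 77.7, 16.5 and 18.8 CPM at 1 mmHg, a log2 fold change of 1.67 (95% CI -0.62 to 3.96, edgeR adjusted p = 1.00). It was 0.83 without pathological replicate 2 and 2.86 without physiological replicate 1. Tfdp2, a dimer partner of E2F, measured 2.18, 3.88 and 0 CPM at 12 mmHg, against 3.42, 5.73 and 33.2 CPM at 1 mmHg, a log2 fold change of -2.79 (95% CI -7.94 to 2.35, edgeR adjusted p = 1.00) that was -1.17 without physiological replicate 3. Among quiescence and antiproliferative genes, 9 of 15 tested were positive and 6 negative, with a median of 0.43. Tob1 and Btg2, both of the BTG/TOB family that restrains proliferation, had log2 fold changes of 1.81 (95% CI -0.73 to 4.34) and 1.13 (95% CI -0.52 to 2.78), with edgeR adjusted p of 1.00 each. Tob1 measured 99.3, 243 and 24.8 CPM at 12 mmHg, against 72.7, 24.6 and 7.70 CPM at 1 mmHg, and its fold change was 0.83 without pathological replicate 2 and 3.00 without physiological replicate 1. Btg2 measured 112, 358 and 302 CPM at 12 mmHg, against 80.9, 74.8 and 198 CPM at 1 mmHg. Its fold change was 0.82 without pathological replicate 2 and 1.72 without physiological replicate 3.

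Hepatocyte RNA and the cell cycle genes were set side by side across libraries. For 11 of the 35 genes (31.4%) the 3 libraries with the least hepatocyte RNA held the 3 highest values. This order was found in 30.2% of all tested genes, while the 35 include genes that did not pass the filter. The 11 were Mcm2, Mcm3, Mcm4, Mcm6, Ccne2, Cdt1, Rrm1 and Rb1 in the G1/S set and Ccna2, Plk1 and Bub1b in the G2/M set. Of these, Plk1 did not pass the filter. The share was thus close to that of all genes, and these libraries were also the 3 with the most genes detected.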

How the data were processed

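RNA of rat liver sinusoidal endothelial cells was sequenced as 6 single-end poly(A) libraries, per the labels' protocols. The authors deposited expected counts per gene, which are estimated read counts before normalization, per the file headers. The submitters' processing notes name STAR, RSEM and limma, with no version. Genome build, annotation and strand use were not given in the sources used here. Between 4.33% and 10.4% of values per library were not whole, so genes that share reads, and antisense or overlapping genes, are uncertain.

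Expected counts were rounded to whole numbers and tested in R 4.3.3 with edgeR 4.0.16 (glmQLFTest, TMM scaling, filterByExpr, no covariate, all 6 libraries), with Benjamini-Hochberg adjustment over all 12742 genes tested, a threshold of 0.05 and two-sided tests. CPM were computed from the deposited values with TMM-scaled totals. Intervals are 95%. Groups came from the pressure labels, and replicates were numbered in deposition order, which pairs nothing. Alternatives were other scalings and filters, DESeq2 1.42.0, limma-voom from limma 3.58.1, a block, a hepatocyte covariate and leaving out each library.

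The genes, lists and tests were chosen with earlier results of these data known. Given in full are Mki67, Ccnj, members whose groups do not overlap, the 3 with the smallest p and the 1 with the most counts per set, and the 2 with the smallest p per further list. All other members are given by their levels, and Rpa2, Rpa3 and Ccnjl were added after their values were seen. Depth limits precision through totals of 8925149 to 24025406 counts. Promoters are from RefSeq (GRCr8), used for these sequences only.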

Additional observations from a re-analysis of the deposited data

How the results depend on the processing

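Over 17 alternatives to the reported fit, edgeR and limma-voom called 0 of the cell cycle genes, and DESeq2 called 1, Ccnj, with 45 over all genes (425 at an unadjusted p under 0.05). The Ccnj log2 fold change was -10.06 in DESeq2. The G2/M median log2 fold change, 0.63 as reported, was 1.90 with limma-voom and 2.84 with sample weights, and the cause was not tested. Of 338 comparisons of a named gene's fold change with its value as reported, 324 kept the direction and the side of the threshold and 13 changed direction. Ccnd2 was at 0.63 with limma-voom and 2.33 with sample weights. With 1 library left out, Mki67 ranged from -1.87 to 0.47, Pcna from -0.063 to 1.04 and Cenpa from -0.50 to 3.09. Fits on libraries under or over a hepatocyte marker sum of 10000 CPM were added after seeing the data, and leave 1 library alone at 1 pressure, which is assumed to vary like the others. Among those poor in hepatocyte RNA, the G2/M median was -1.11, Bub1 was at -1.25, Cenpa at -0.59 and Ccni at 0.30. Among those rich in it, 244 genes and none of the cell cycle genes were called, the G1/S median was -2.14, Mki67 was at 1.66, Pcna at -0.62, Cdkn1a at -0.79 and Slbp at -2.56. No label pairs the libraries. A replicate block of neighbouring sample numbers called 0 genes and gave medians of -0.59 for the G1/S and 1.45 for the G2/M genes. Deviations from the group means correlated at 0.692, -0.243 and 0.416 between neighbours, and pathological replicate 2 correlated best with physiological replicate 1, not with its neighbour.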
